A study of Rattus norvegicus with 6 samples.

Results

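The genes described here are 10 messenger RNAs (mRNAs) of the smooth muscle contractile apparatus, measured in PAIII tumors of the rat. They are Acta2, Actg2, Myh11, Tagln, Cnn1, Des, Cald1, Mylk, Smtn and Lmod1. They were taken by name from the deposited expression table, and all 10 were among its 17030 gene symbols, each on 1 row. PAIII is a transplantable prostate cancer of the Lobund-Wistar rat that grows without androgen and spreads to the lung. Rats received PAIII cells under the skin of the flank at 2 months of age, and tumors were taken on day 40. By the labels, the digitoxin group held tumors A1, A6 and A12 and the vehicle group tumors B5, B9 and B14, with 1 library per tumor and n = 3 in each group. Digitoxin, a cardenolide that inhibits the sodium pump, was injected daily at 0.03 mg/kg from day 10, and controls received the vehicle. Each library was made from 10 micropunches of viable tumor. The treated rats were drawn from those with low serum IL-6 and CINC-1 and the controls from those with high levels, so that serum selection and treatment cannot be told apart.

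Smooth muscle shortens when calcium and calmodulin activate myosin light chain kinase, which phosphorylates the light chain of smooth muscle myosin and lets it pull on actin filaments. Calponin, caldesmon and transgelin lie along these filaments, and desmin filaments tie the contractile units together. In a tumor this set is found in the walls of vessels, and in the lung also around the airways. Activated fibroblasts (myofibroblasts) and pericytes use part of it, most of all smooth muscle actin and transgelin. Many of these genes are driven by serum response factor, which binds a short element called the CArG box.

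Values are FPKM, that is fragments scaled to transcript length and to the mapped total of the library, as deposited. Since they are per length, levels of different genes can be set side by side. Reads were not analysed here and the depth behind each value is unknown, so that no counting error is given. The summed FPKM ran from 651322 to 1025231 per library, and a value of 0 is given as listed at 0, since it can be a failed estimate. The light chain Myl6, which most cells make, was listed at 0 in all 6 tumors. The libraries differed widely in lung transcripts, in which the treatment groups overlapped. The summed FPKM of 15 lung alveolar and club cell genes was 107726 in A1, 216709 in A6, 49191 in B5 and 59628 in B9, against 44.5 in A12 and 66.0 in B14. In A12 6 of these 15 genes were listed at 0, and in B14 7 were. Scgb1a1, Sftpc and Sftpa1 led this list, and Scgb1a1, a club cell protein, was at 129228 FPKM in A6 and 1.51 in B14. Whether A1 and B9 carry the right labels is in doubt and was not settled here. Groups follow the labels throughout, so each mean, overlap and fold change for digitoxin holds for the libraries as labelled.

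By mean level, Tagln and Acta2 were the most abundant of the 10 mRNAs, and Myh11 and Lmod1, which are more restricted to smooth muscle, were the least abundant. Single tumors departed from this. In B5 Des (17.5 FPKM) and Cald1 (7.22 FPKM) were above Acta2 (6.79 FPKM). In A12 Mylk (0.883 FPKM) was below Myh11 (2.66 FPKM), and in A6 Cald1 (1.75 FPKM) and Smtn (2.69 FPKM) were below Myh11 (7.50 FPKM). Mean levels over the 6 tumors were 174 FPKM for Tagln, 74.1 for Acta2, 21.0 for Des, 16.3 for Cald1, 12.1 for Actg2, 9.31 for Mylk, 9.07 for Cnn1, 7.71 for Smtn, 4.60 for Myh11 and 0.766 for Lmod1. Neighbours in this order were compared within tumors on log2(FPKM + 1) with an exact paired permutation test, two-sided and adjusted over the 9 pairs. Tagln was above Acta2 in 6 of 6 tumors, by a mean of 1.44 on the log2 scale, and Myh11 was above Lmod1 in 6 of 6, by a mean of 1.55. Each had p = 0.0312, the smallest that the permutation test of 6 tumors allows, and an adjusted p of 0.141. The other 7 pairs had permutation p-values from 0.219 to 0.938, and their places in the order did not differ beyond the spread between tumors. None of the 9 pairs passed the adjusted threshold of 0.05 in this permutation test, and 2 had an unadjusted p under 0.05. At least 6 of the 9 pairs would have had to reach the smallest p for any to pass.

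**Figure D1:**
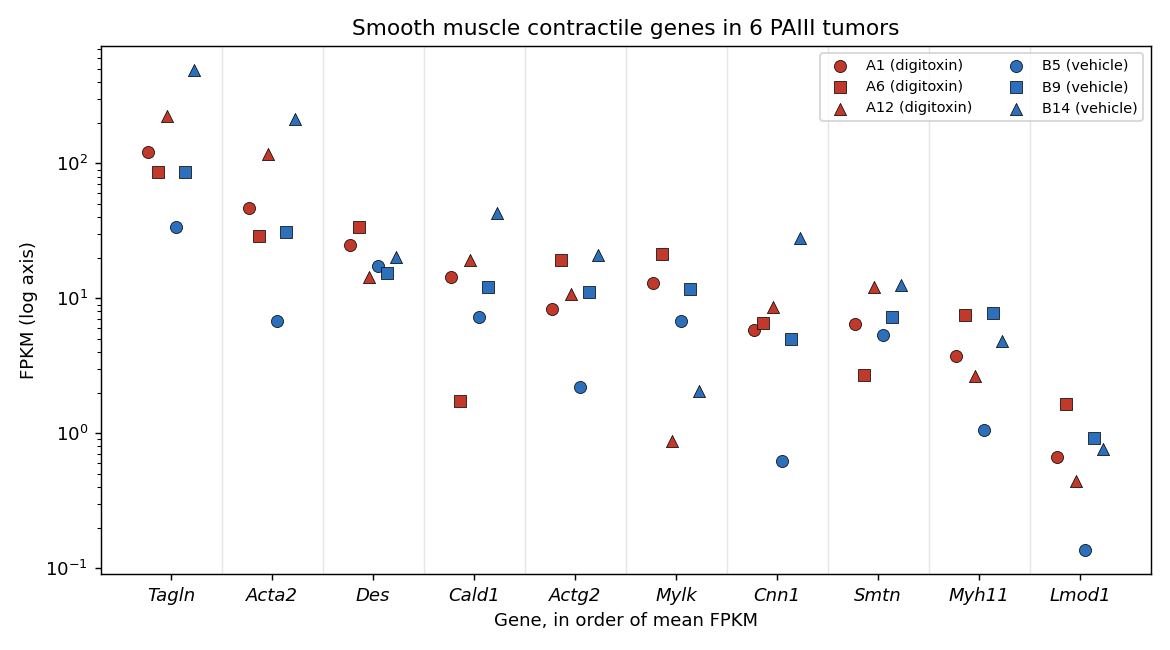
FPKM of the 10 smooth muscle contractile genes (log axis) in each tumor, with genes in order of mean FPKM; red points are digitoxin-treated and blue points vehicle-treated tumors, and each shape and color is 1 tumor. Acta2, Tagln and Cnn1 were highest in B14 and lowest in B5, whereas Mylk was lowest in A12 and B14, and in no gene were the 2 colors apart.

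Smooth muscle alpha-actin, Acta2, is the main actin of vessel walls and the usual mark of myofibroblasts. It lies on chromosome 1 from 259760520 to 259773301 in the deposited positions, whose genome build is not given by the table. The submitters' notes name hg19, a human build, whereas the table's highest autosome is 20, so the deposited positions are printed only as identifiers. Acta2 was at 47.0 FPKM in A1, 29.1 in A6 and 117 in A12, and at 6.79 in B5, 30.8 in B9 and 214 in B14. The highest and the lowest value were both in control tumors and differed 31.4-fold. Acta2 in A12 was above the controls B5 and B9 and below B14, so the groups overlapped. The mean was 64.4 ± 46.6 FPKM (SD, n = 3) in treated tumors, against 83.7 ± 113 FPKM (SD, n = 3) in controls.

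Smooth muscle gamma-actin, Actg2, is the actin isoform of gut, bladder and airway muscle more than of vessels. It lies on chromosome 4 from 179805781 to 179820306. Its levels were 8.29 FPKM in A1, 19.2 in A6 and 10.8 in A12, and 2.19 in B5, 11.1 in B9 and 20.8 in B14. It was thus lowest in B5, as Acta2 was, but A6 and B14 were within 1.08-fold of each other. The ratio of Acta2 to Actg2 was 1.51 in A6, 2.79 in B9, 3.11 in B5 and 5.68 in A1, and 10.3 in B14 and 10.9 in A12. Acta2 exceeded Actg2 in every tumor. The actins are close in sequence, and reads that fit more than 1 of them can move value between their rows, so small differences between actin rows are uncertain. The non-muscle actin Actb was far above both, and Acta2 was between 0.136% of it in B5 and 3.02% in B14.

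The control region of Acta2 is shown because 2 elements that resemble the CArG box lie in it. RefSeq windows of 250 bases before to 50 after a transcription start (GRCr8) were at hand for 7 of the 10 genes, in 8 windows, Cald1 having 2. The 7 were Acta2, Actg2, Cald1, Cnn1, Des, Mylk and Smtn. A CArG-like match was taken as 2 C, 6 bases of which at least 5 are A or T, and 2 G, a form that reads the same on both strands. It was found in 1 of the 8 windows, that of Acta2, which held 2 matches, beginning 134 and 84 bases before the start. Neither match was a perfect CArG box with all 6 bases A or T. Among all 33469 windows of this length, 9.42% held at least 1 CArG-like match, 0.846% held at least 2, and 1.64% held a perfect box. The stretch chr1:241172553-241172662, minus strand, is printed 5′ to 3′ with both matches in capitals.
Acta2: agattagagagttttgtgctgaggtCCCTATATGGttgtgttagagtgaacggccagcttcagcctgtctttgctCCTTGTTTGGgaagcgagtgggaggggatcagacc
A match is a description of the letters, and its absence from the other windows says nothing of factors that act elsewhere.

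Smooth muscle myosin heavy chain, Myh11, is the motor of the contractile apparatus and its most restricted marker. It lies on chromosome 10 from 11444266 to 11538406. Levels were low, at 3.76 FPKM in A1, 7.50 in A6 and 2.66 in A12, and at 1.06 in B5, 7.80 in B9 and 4.82 in B14. A6 and B9 were highest and B5 lowest, so the tumors at the top were not those at the top for Acta2. Myosin light chain kinase, Mylk, phosphorylates the light chain and starts contraction, and its gene also gives a long non-muscle kinase found in endothelium. The table holds 1 row for Mylk, on chromosome 11 from 72103709 to 72313911, so that these forms were not told apart. Mylk was at 13.1 FPKM in A1, 21.2 in A6 and 0.883 in A12, and at 6.75 in B5, 11.8 in B9 and 2.07 in B14. It was lowest in A12 and B14, the tumors with the highest Acta2, and ranged 24.1-fold.

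Transgelin, Tagln, bundles actin filaments and is an early marker of the smooth muscle program. Its row spans chromosome 8 from 48847363 to 48852838. Levels were 121 FPKM in A1, 86.8 in A6 and 223 in A12, and 33.9 in B5, 87.0 in B9 and 493 in B14. The tumors came in the same order as for Acta2, with B14 first, A12 second and B5 last, and A6 and B9 were nearly equal. Calponin, Cnn1, binds actin and slows the myosin motor, and lies on the same chromosome from 23167869 to 23176532. It was at 5.83 FPKM in A1, 6.57 in A6 and 8.62 in A12, and at 0.627 in B5, 4.99 in B9 and 27.8 in B14. Its 44.3-fold range, again between B5 and B14, was the widest of the 10 genes, and B14 alone was 3.22 times the next tumor.

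Caldesmon, Cald1, holds myosin off the actin filament, and its gene also makes a shorter form in most other cells, which the single row on chromosome 4 from 61952323 to 62021822 does not separate. Cald1 was at 14.5 FPKM in A1, 1.75 in A6 and 19.3 in A12, and at 7.22 in B5, 12.2 in B9 and 42.7 in B14. Smoothelin, Smtn, is a cytoskeletal protein of contracting smooth muscle and lies on chromosome 14 from 84443088 to 84464810. Smtn was at 6.45 FPKM in A1, 2.69 in A6 and 12.1 in A12, and at 5.34 in B5, 7.22 in B9 and 12.5 in B14. For both genes A6 was the lowest tumor and B14 and A12 the highest, so B5 was not at the bottom here. Leiomodin 1, Lmod1, starts actin filaments in smooth muscle and lies on chromosome 13 from 57197721 to 57240449. Its level was 0.673 FPKM in A1, 1.66 in A6 and 0.440 in A12, and at 0.136 in B5, 0.921 in B9 and 0.764 in B14. It was under 1 FPKM in 5 of the 6 tumors, where the precision of a value is not known.

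Desmin, Des, is the intermediate filament of muscle cells, smooth and striated. The row spans chromosome 9 from 82325842 to 82333548. Des was at 24.9 FPKM in A1, 33.7 in A6 and 14.3 in A12, and at 17.5 in B5, 15.3 in B9 and 20.3 in B14. The 2.35-fold range was the narrowest of the 10 genes. Des exceeded Acta2 in A6 and B5, whereas Acta2 was 8.18 times Des in A12 and 10.5 times Des in B14.

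The 10 genes therefore did not move as 1 unit across the tumors. Likeness was taken as the root mean square difference between profiles on log2(FPKM + 1), each centred on its own mean, over the 6 tumors, where 0 would be the same profile. Tagln was closest to Cnn1 (0.33) and to Acta2 (0.38), and Acta2 and Cnn1 differed by 0.53. Myh11 was closest to Lmod1 (0.41) and Actg2 (0.53), and Des to Lmod1 (0.32), while Cald1 and Smtn differed by 0.64. This scale holds low genes such as Lmod1 near a flat profile. Mylk stood apart from the rest, with 2.50 against Acta2, 2.20 against Tagln and 2.07 against Cnn1, and at least 1.04 against every other member. These groups were read from the values and carry no test.

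The ratio of Acta2 to Mylk set A12 and B14 apart from the other 4 tumors. It was 1.01 in B5, 1.37 in A6, 2.62 in B9 and 3.58 in A1, but 103 in B14 and 133 in A12. The ratio of Tagln to Myh11 was 11.1 in B9, 11.6 in A6, 32.0 in B5 and 32.1 in A1, against 83.8 in A12 and 102 in B14. By contrast, Acta2 stayed between 20.0% of Tagln in B5 and 52.6% in A12, a far narrower span. Ratios within a library do not depend on its scaling.

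**Figure D2:**
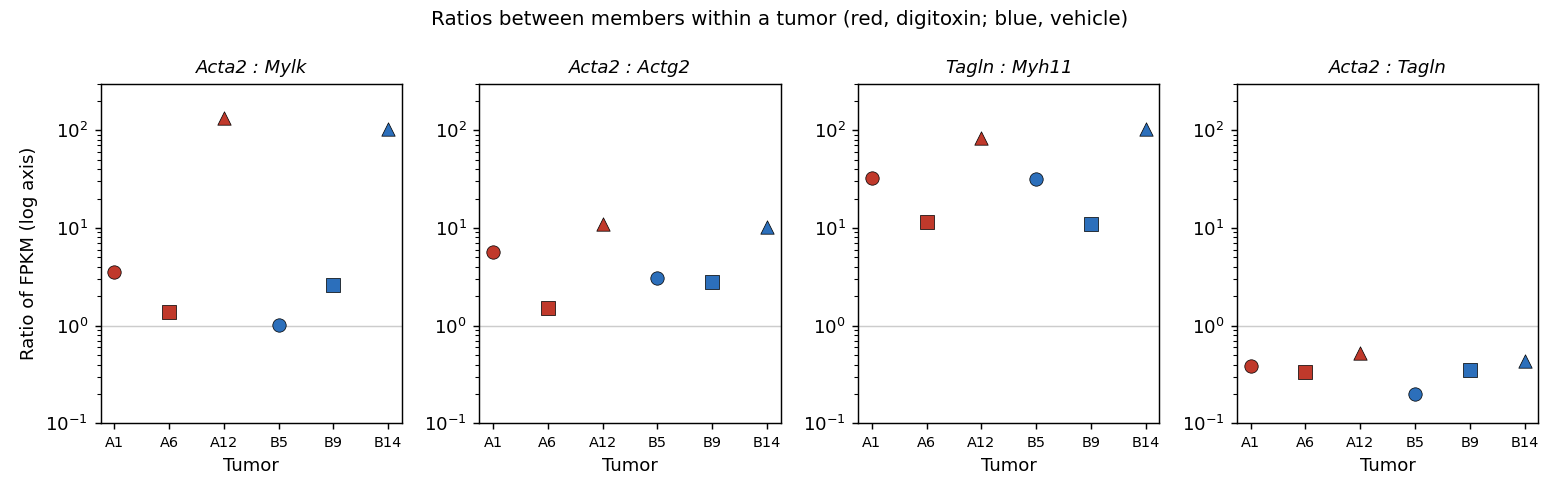
Ratio of FPKM between 2 members (log axis) in each of the 6 tumors, red for digitoxin-treated and blue for vehicle-treated. Acta2 to Mylk lay between 1.01 and 3.58 in 4 tumors and at 103 and 133 in B14 and A12, whereas Acta2 to Tagln lay between 0.200 and 0.526 throughout.

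Digitoxin-treated and control tumors were compared with limma on log2(FPKM + 1), fitted across the 10749 rows whose mean reached 1 FPKM, to ask whether the drug was associated with the level of the contractile genes. Of the 10 genes, 9 met this minimum, and Lmod1 did not. At an adjusted p under 0.05 by limma, 0 of the 9 differed, against 0% of all rows (0 of 10749). An unadjusted p under 0.05 was reached by 0 of the 9 and by 0.335% of all rows. The groups overlapped for every one of the 10 genes, while 4.16% of all rows had groups that did not overlap. The smallest adjusted p among the 9 was 0.926.

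The log2 fold change, digitoxin against vehicle, was 0.56 for Acta2, with a 95% confidence interval from -2.38 to 3.50. For Actg2 it was 0.47, from -1.34 to 2.28. For Myh11 it was 0.16, from -1.38 to 1.71, and for Mylk 0.32, from -2.18 to 2.82. These intervals reach past a 2-fold difference in both directions. With the replicate number as a block, which no label gives as a pairing and which sets A12 and B14 together, they were narrower. They ran from -0.94 to 2.07 for Acta2, -0.73 to 1.67 for Actg2, -0.92 to 1.25 for Myh11 and -0.72 to 1.36 for Mylk. All of these 4 still reached past a 2-fold increase, and none reached a 2-fold decrease. Under the block the lower limits of Tagln (-1.03), Cnn1 (-1.33), Cald1 (-2.25) and Smtn (-1.28) did, and that of Des (-0.51) did not. For Tagln the value was 0.22, from -2.12 to 2.56, and for Cnn1 0.28, from -2.15 to 2.70. Those of Cald1 and Smtn were below 0, at -0.82 (from -3.13 to 1.49) and -0.32 (from -1.67 to 1.03). Des had the narrowest interval, 0.37 with limits of -0.50 and 1.23. Acta2, Tagln and Cnn1 had a higher mean log2 level but a lower mean FPKM with digitoxin, with B14 the highest and B5 the lowest of the 6 tumors for each.

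Of the 9, 7 had a fold change above 0 and 2 below, with a median of 0.28, beside -0.16 over all rows. Without B5 the median was -0.57, and Acta2, Actg2, Myh11, Tagln and Cnn1 changed sign, to between -0.73 and -0.31. Without A6, Mylk was at -0.38, Myh11 at -0.18, Cald1 at 0.08 and Smtn at 0.15. Leaving out both A12 and B14 kept every sign, with Acta2 at 1.27, Tagln at 0.90, Cnn1 at 1.20 and Mylk at 0.83, and 0 of the 9 passed the adjusted threshold. Des reached an unadjusted p of 0.0469 there, at 0.79, and its adjusted p by limma was 0.392 (from 0.252 to 1 over all alternatives). In that fit 1183 rows had an unadjusted p under 0.05. With no minimum, Lmod1 was at 0.25, from -0.51 to 1.01.

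**Figure D3:**
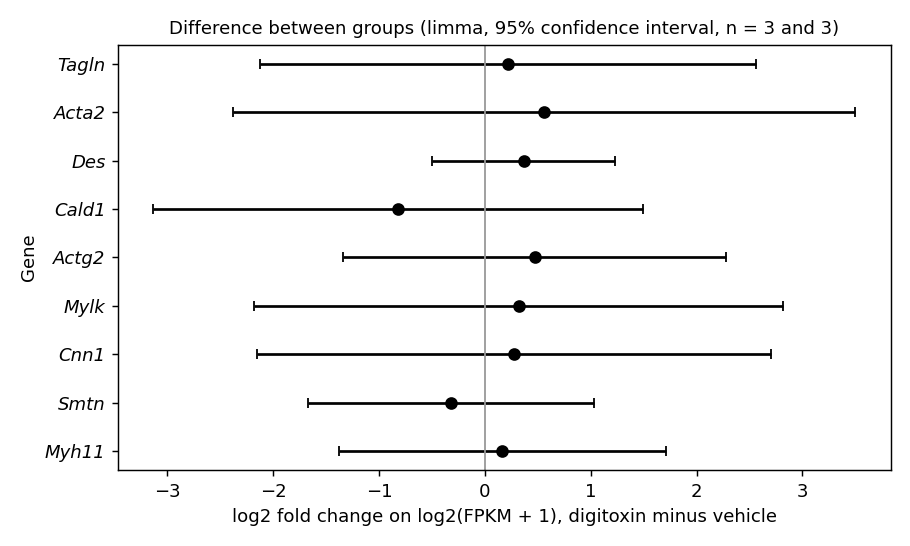
log2 fold change between digitoxin-treated and vehicle-treated tumors (horizontal axis, from log2(FPKM + 1)) for the 9 members tested; points are limma estimates and bars 95% confidence intervals, n = 3 in each group. Every interval crosses 0, and that of Acta2 runs from -2.38 to 3.50.

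The rest of the contractile pathway was read from a list of other smooth muscle genes, of which 54 were in the table and 43 were tested. None of the 43 differed at an adjusted or at an unadjusted p under 0.05 by limma, and 21 had a fold change above and 22 below 0, with a median of -0.01, which ran from -0.11 (without B14) to 0.30 (without A12) with 1 tumor left out. Among the 3 most abundant, the LIM protein gene Crip1 was between 3123 and 5835 FPKM, the regulatory light chain Myl12a between 1040 and 1497, and the small GTPase Rhoa between 307 in A6 and 970 in B14. The groups did not overlap for 1 of the 43, Myl12a, beside 4.16% of all rows, and its log2 fold change was 0.27 ± 0.24 (standard error).

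Within this list, too, A12 and B14 were at opposite ends for different genes. Both were above the other 4 tumors for 13 of the 43 genes (30.2%) and both below them for 20 (46.5%), beside 30.1% and 29.3% of all 10749 rows. Of the 9 members, both were above for Acta2, Tagln, Cnn1, Cald1 and Smtn, and both below for Mylk. Myl9, Tpm2, Ppp1r14a, Ppp1r12a, Srf and Myocd were named with their values already known. The smooth muscle light chain Myl9 followed Tagln, at 42.5 FPKM in A1, 44.4 in A6 and 75.9 in A12, and 17.2 in B5, 41.3 in B9 and 139 in B14. Tropomyosin 2, Tpm2, was likewise lowest in B5 (15.3 FPKM) and highest in B14 (126 FPKM). Ppp1r14a, an inhibitor of the phosphatase that undoes the work of Mylk, went the way of Mylk, at 160 FPKM in A6, 55.9 in A1, 50.6 in B9 and 24.7 in B5, and at 13.3 in B14 and 10.6 in A12. Ppp1r12a, the targeting subunit of the phosphatase itself, was at 2.55 FPKM in A6 and 37.9 in B14. Serum response factor, Srf, stayed between 21.1 and 25.4 FPKM, and its smooth muscle partner myocardin, Myocd, was at most 0.147 FPKM in any tumor.

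**Figure D4:**
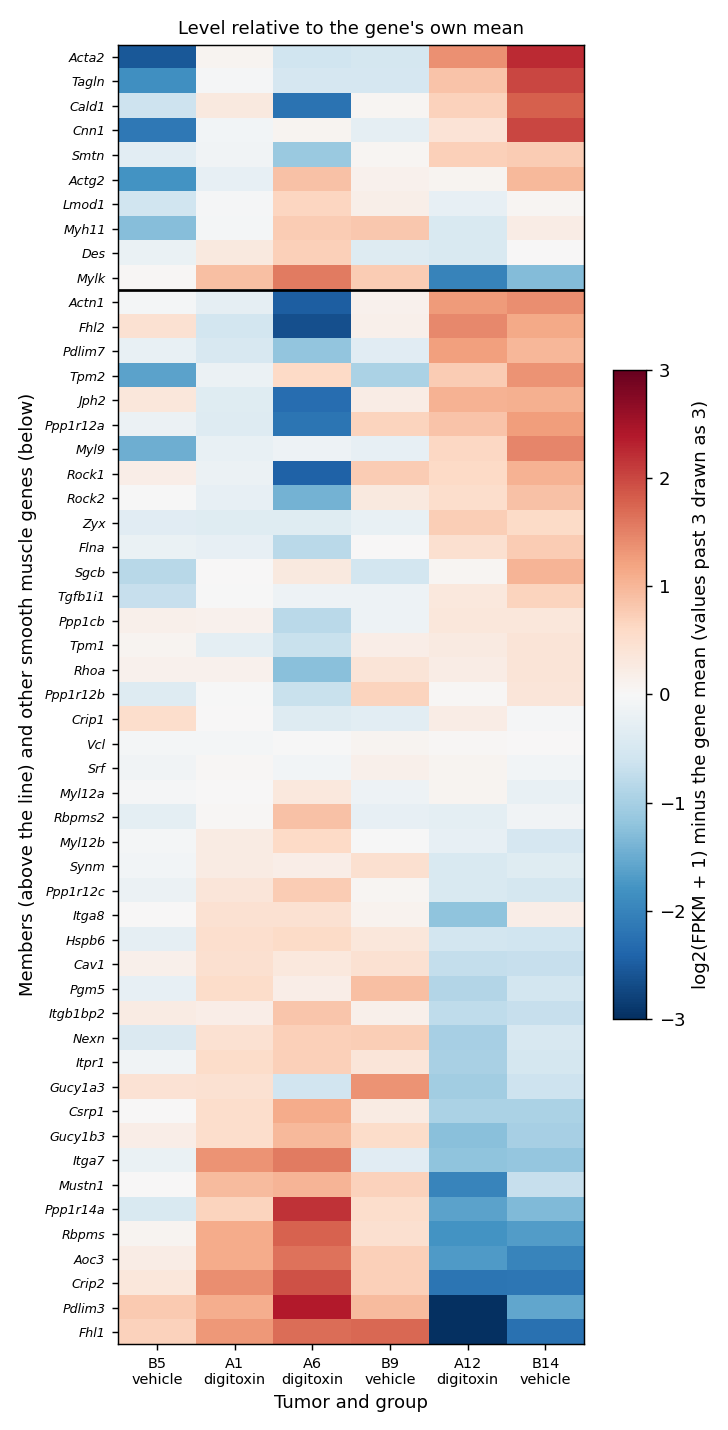
Level of each gene as log2(FPKM + 1) minus its own mean over the 6 tumors (color, red above and blue below the mean), for the 10 members above the line and 43 other smooth muscle genes below it; rows are sorted by their level in A12 and B14. Acta2, Tagln, Cald1, Cnn1 and Smtn are red in A12 and B14, Mylk is blue in both, and Srf hardly varies.

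Some relatives that serve other cells were far more abundant than the members. Among 10 non-muscle relatives in the table, Actb had the highest mean at 5179 FPKM, followed by Vim at 1649, Tagln2 at 865, Tpm4 at 510, Tpm3 at 291 and Cnn3 at 261. Myh10 was at 10.9 and Smtnl2 at 8.56. Actg1 and Myh9 were listed at means of 0.827 and 0.770 FPKM, although most cells use both, and their rows are uncertain. Tagln2 stayed between 823 and 900 FPKM while Tagln ranged 14.5-fold, so that Tagln was 4.12% of Tagln2 in B5 and 55.4% in B14. None of the 8 tested passed an adjusted or an unadjusted p under 0.05 by limma. A further list of 7 relatives held those of striated muscle and Tagln3, a transgelin of neurons. Tagln3 had a mean of 3.28 FPKM, and the striated muscle genes Actc1, Mylk2 and Acta1 had means of 2.77, 1.81 and 1.55 FPKM. Mylk3 and Smtnl1 were under 1 FPKM in every tumor and Lmod2 was listed at 0 in all, and none of the 4 tested passed an adjusted or an unadjusted p under 0.05 by limma.

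Striated muscle was checked because desmin is shared with it. Of 38 skeletal and cardiac muscle genes in the table, between 5 (A12) and 16 (A1) were at 1 FPKM or more, and between 7 (A1) and 22 (A12) were listed at 0. The heavy chain genes Myh1, Myh2, Myh4 and Myh7 were under 1 FPKM in every tumor, and the cardiac heavy chain Myh6 was at 1.84 FPKM in A1, 0.106 in A6 and listed at 0 in the other 4. Tnnt2, Tnnc1 and Tnni2 were the most abundant, with means of 88.5, 10.5 and 8.47 FPKM. A1 alone had the atrial light chain Myl7 at 28.9 FPKM, against 0.417 in A6 and a listing at 0 in the other 4. The light chains Myl4 and Myl2 were highest in A1 too, at 17.6 and 3.72 FPKM. Acta1, Myl1 and Tnnc2 were instead highest in B14, at 6.30, 4.09 and 5.20 FPKM. Of the 36 genes of this list above 0, 14 were highest in A1, 10 in A6 and 8 in B14. A1 was the second highest for Des and had the highest summed FPKM of the 38 genes, at 200. A6, the highest for Des, had the lowest sum, at 72.9, and the lowest Tnnt2, at 5.73 FPKM. The part of striated muscle in the level of Des was not tested. Mylpf was the one gene of the 12 tested with an unadjusted p under 0.05 by limma, beside 0.335% of all rows. Its log2 fold change was -1.11, with an adjusted p of 0.926 by limma. It was also the only one of the 12 whose groups did not overlap, beside 4.16% of all rows.

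Markers of other cell types moved with some members and against others. The summed FPKM of 19 fibroblast genes was 1231 in B5, 1432 in B9, 1723 in A6, 2720 in A1, 5464 in A12 and 7394 in B14, so that its 3 highest tumors and its lowest were those of Acta2 and Tagln, in the same order. Collagen Col1a1 was at 35.4 FPKM in B5, 12.7 in A6, 88.8 in B9 and 381 in A1, and at 1205 in A12 and 1665 in B14. Sparc and Col3a1, the other abundant genes of that list, were highest in B14 as well, at 1977 and 1171 FPKM. Both A12 and B14 were above the rest for 14 of the 18 fibroblast genes tested (77.8%), beside 30.1% of all rows. For 2 of the 18 (11.1%) both were below the rest, beside 29.3% of all rows. These were Dpt, at 101 FPKM in A6, 13.7 in A12 and 5.48 in B14, and Pi16, at 38.3, 4.15 and 5.94 FPKM. Col1a2 was listed at 0 in all 6 tumors. The part of fibroblasts in the levels of Acta2, Tagln and Cnn1 was not tested.

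The summed FPKM of 18 endothelial genes was 4113 in A6, 2042 in A1, 1646 in B9, 789 in B5, 310 in B14 and 273 in A12, which is the order of the tumors for Mylk. The lung genes stood in that order too. Ramp2, Plvap and Cldn5 led the endothelial list and weigh most in its sum, and Cldn5 was at 767 FPKM in A6 and 3.37 in A12. For 14 of the 17 endothelial genes tested (82.4%) A12 and B14 were both below the rest, beside 29.3% of all rows. Flt1 went the other way, at 1.41 FPKM in A6, 60 in A12 and 69.4 in B14. Cdh5 did not follow the summed order either, at 6.34 FPKM in A6, 27.3 in B9 and 10.2 in B14. Of the 12 pericyte genes the most abundant were Anpep, Mcam and Cox4i2, each highest in A6, at 168, 107 and 56.0 FPKM. By gene, however, 4 of the 12 were highest in A6 and 8 in B14, among them Rgs5 (27.4 FPKM), Notch3 (29.2 FPKM) and the receptor Pdgfrb (23.7 FPKM). Both A12 and B14 were above the rest for 3 of the 12 (25%) and below them for 3 (25%), beside 30.1% and 29.3% of all rows. The summed pericyte level ran from 142 in A12 to 401 in A6. Of the 18 cell division genes, 17 were tested, and both A12 and B14 were above the rest for 16 (94.1%, beside 30.1% of all rows). Cdk1, Birc5 and Aurkb led this list, highest in A12 at 115, 119 and 89.2 FPKM and lowest in A6 at 15.1, 8.13 and 30.0 FPKM. In bulk tissue fewer cells of a type and less RNA per cell cannot be told apart, and the part of endothelium, pericytes and lung tissue in the levels of Mylk and Myh11 was not tested.

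By limma, none of the 12 pericyte, 18 fibroblast, 17 endothelial, 15 lung or 17 cell division genes tested passed an adjusted p under 0.05 for treatment, nor an unadjusted p under 0.05. Their median log2 fold changes were 0.09, 0.05, 0.59, 0.68 and -1.08, in that order. Each of these 5 medians moved when single tumors were left out. With 1 tumor left out, the pericyte median ran from -0.12 (without B5) to 0.33 (without A12) and the fibroblast median from -0.68 (without A12) to 0.92 (without B14). The endothelial median ran from -0.11 (without A6) to 1.50 (without A12) and the lung median from -2.42 (without B14) to 4.02 (without A12). That of the cell division genes was -0.14 without A6 and -1.94 without A12.

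The genes most like Acta2 and Myh11 were sought among all rows with a mean of 5 FPKM or more, those of the marker lists included. The 8 nearest to Acta2, members left out, were Prrx2, Gpc1, Col6a2, Olfml2b, Mmp23, Kremen1, Tmem119 and Mfap5, with differences from 0.51 to 0.66 over the 6 tumors, and Mfap5 is also on the fibroblast list. Prrx2, a homeobox gene of mesenchyme, was at 0.665 FPKM in B5, 1.48 in B9, 2.50 in A6 and 2.62 in A1, and at 10.9 in A12 and 17.6 in B14. Col6a2, a chain of collagen VI, was at 14.2 FPKM in B5 and 132 in B14. Among those nearest to Myh11 were Lmcd1, Pcdhgc3, Cd40, Col16a1, Thra, Spry4 and Cmklr1, with differences from 0.34 to 0.43. Lmcd1, a LIM domain protein gene, was at 18.4 FPKM in A1, 34.7 in A6 and 9.50 in A12, and at 9.32 in B5, 20.9 in B9 and 21.2 in B14. No gene was among the nearest of both.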

How the data were processed

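Total RNA of micropunched tumor was made into TruSeq libraries and sequenced as single reads by the authors, who aligned them with Bowtie 2 and TopHat 2 and deposited FPKM from Cufflinks 2 for 17557 rows. The differential test of the study, Cuffdiff, needs reads and was not repeated. No column was left unmatched. Steps between low values gave no depth, since the most frequent ratio to B9 held at most 3.34% of the low rows of a library.

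For a symbol on several rows the one of highest mean was kept, which touched none of the 10 genes. The treatment test was limma (version 3.58.1, under R 4.3.3; lmFit, then eBayes with a trend) on log2(FPKM + 1), a scale that understates changes of low genes, with Benjamini-Hochberg adjustment over 10749 rows. The code of the fit was checked on simulated rows with large built-in differences and a limited spread. That check says nothing of smaller differences such as those of the members. Other values came from scipy 1.17.1, pandas 2.3.3 and numpy 2.4.6 under Python 3.11.15, plots from matplotlib 3.10.9, and sequences from RefSeq. Samples of 1 group are separate rats.

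Deviations from the group means correlated at r = 0.426, 0.606 and 0.869 for replicates 1, 2 and 3, the last being A12 and B14. Unlike numbers also correlated, at r = 0.612 for A6 and B5 and r = 0.644 for A1 and B9. No label says that the numbers pair the rats, so the main fit had no block. The replicate block was run only as an alternative. Members and lists were chosen with earlier results of these data known. Named genes are all members, their relatives, the 3 most abundant genes of each other list, and the 8 nearest to Acta2 and Myh11, of which 1 is not reported here. Other genes the text names (Myl6, Myl9, Tpm2, Ppp1r14a, Ppp1r12a, Srf, Myocd, Col1a2, Dpt, Pi16, Flt1, Cdh5, Rgs5, Notch3, Pdgfrb, Mylpf, Tnnc2 and the striated muscle myosin genes) were chosen after their values were seen. The alternatives left out each tumor, blocked on the replicate, summed the rows of a symbol, dropped the trend or the filter, scaled by median of ratios, or used a pseudocount of 0.1. The fit without A12 and B14 was added after seeing the data.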

Additional observations from a re-analysis of the deposited data

How the results depend on the processing

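No member passed an adjusted p under 0.05 in any of the 13 alternatives to the limma fit. The replicate block, summed rows, no filter, no trend, a pseudocount of 0.1, scaling by median of ratios and the fit without A12 and B14 each kept the sign of all 9 members tested. Over all members and alternatives, 105 fold changes kept their sign and 12 did not, all 12 with 1 tumor left out. With 1 tumor left out, Acta2 ran from -0.57 (without B5) to 1.82 (without B14), Actg2 from -0.31 to 1.07, Tagln from -0.64 to 1.27 and Cnn1 from -0.73 to 1.34, each between the same tumors, and Tagln was also at -0.15 without A12. Myh11 ran from -0.44 (without B5) to 0.61 (without B9), Mylk from -0.38 (without A6) to 1.40 (without A12), Cald1 from -1.36 (without A12) to 0.08 (without A6), Smtn from -0.76 (without A12) to 0.15 (without A6) and Des from 0.10 (without A6) to 0.69 (without A12). Mylk was at -0.05 without A1 and -0.25 without B14. The median of the 9 ran from -0.57 (without B5) to 0.46 (without B14). The number of members with an unadjusted p under 0.05 was from 0 to 1 with 1 tumor left out, and 1 without A12 and B14, which was Des each time. Under scaling the all-row median shifted by 0.18 (log2), and relative to it the members' median went from 0.44 to 0.42.

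Rows with an unadjusted p under 0.05 numbered 36, but 133 with no filter, 446 with the replicate block, 1183 without A12 and B14, and from 13 (without A6 or B9) to 2114 (without A12) with 1 tumor left out. With the replicate block 0 members and 0 rows passed the adjusted threshold. Without B14, and without A12 and B14, 2 rows did. The order of levels was not retested with 1 tumor left out, since 5 tumors cannot reach an unadjusted p under 0.05 there. The causes were not tested.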
